A study of Mus musculus with 18 samples.

Results

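The stretch described here is the part of the *Runx1* domain, as the authors bounded it for calling interactions, downstream of the proximal promoter P2. It is on chromosome 16 of the mouse (mm10). It runs from 92250000 up to the P2 start site at 92697329 and holds the coding exons of *Runx1*, its 3′ end, the long non-coding gene *Gm30224* and *Clic6*. Its members are the *Dpn*II fragments with a midpoint in this stretch that were listed as a significant interaction of at least 1 of 6 4C-seq baits. There were 305 such fragments among the 1970 distinct fragments that the lists of all baits hold on the chromosome. 4C-seq joins cross-linked DNA ends by ligation and then reads out which fragments were joined to 1 chosen fragment, the bait. All libraries came from HPC-7, a line of mouse blood progenitors grown in culture, with no treatment or genotype that differs between them. Baits were placed at the distal promoter P1, at the +24 enhancer and at P2, and each had a second bait (P1cc, +24cc, P2cc) at a nearby cohesin and CTCF binding site. For each bait 2 replicate libraries and 1 control library without the first ligation were made.

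*Runx1* encodes a DNA-binding factor that blood stem cells need to emerge in the embryo. The gene is read from P1 or P2, and the transcripts of both share the exons downstream of P2, where the Runt DNA-binding domain and the activation domain are encoded. Per the study, P1 is in use in HPC-7 cells and P2 is not. Chromatin folds into domains within which contacts are frequent, and the boundaries of such domains often carry CTCF and cohesin. Because *Runx1* is on the minus strand, downstream means a lower coordinate here.

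The sequences that mark the main places in this stretch are given first, from GRCm38.p6, which has the coordinates of mm10. The fragment that the most baits listed lies between *Clic6* and *Gm30224*, and its first 150 bases (chr16:92565509-92565658, plus strand, with the *Dpn*II site in capitals) are shown because it is the most shared member.
Most shared fragment: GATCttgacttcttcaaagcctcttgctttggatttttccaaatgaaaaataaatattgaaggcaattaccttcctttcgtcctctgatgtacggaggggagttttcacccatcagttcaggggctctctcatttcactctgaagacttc
The RefSeq promoter of *Gm30224* (chr16:92596099-92596398, minus strand, *Dpn*II site in capitals) lies where both P1 baits had an interaction.
*Gm30224* promoter: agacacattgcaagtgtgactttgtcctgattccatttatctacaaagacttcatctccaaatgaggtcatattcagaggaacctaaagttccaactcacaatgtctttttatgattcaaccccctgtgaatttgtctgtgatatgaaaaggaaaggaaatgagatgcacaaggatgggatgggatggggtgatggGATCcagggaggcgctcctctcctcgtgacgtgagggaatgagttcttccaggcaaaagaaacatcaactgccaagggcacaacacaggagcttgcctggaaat
Exon 3 of the P2 transcript, in capitals (chr16:92668678-92668842, minus strand, with its intron flanks), belongs to the Runt domain and lay in a category 1 fragment of both P2 baits.
*Runx1* exon 3: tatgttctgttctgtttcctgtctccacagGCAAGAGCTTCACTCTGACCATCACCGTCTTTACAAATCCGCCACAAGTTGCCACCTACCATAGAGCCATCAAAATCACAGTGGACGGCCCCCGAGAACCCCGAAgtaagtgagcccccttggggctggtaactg
The remaining lines show, in capitals, the 3 matches to the CTCF core consensus that fell in members. They are in *Clic6* (chr16:92511889-92511960), between *Clic6* and *Gm30224* (chr16:92544422-92544493) and in *Runx1* (chr16:92623083-92623154), all on the plus strand.
*Clic6* match: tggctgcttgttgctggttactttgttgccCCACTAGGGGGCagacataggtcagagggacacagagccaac
Intergenic match: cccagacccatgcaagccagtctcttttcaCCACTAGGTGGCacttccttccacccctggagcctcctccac
*Runx1* match: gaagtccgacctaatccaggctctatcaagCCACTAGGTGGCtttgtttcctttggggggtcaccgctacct

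The deposited lists give the position and the category of each fragment that was significant in both replicates. Category 1 means that the window of fragments stayed significant after the reads of its highest fragment were removed, and category 2 that it was significant with the highest fragment averaged with its neighbours. Fragments listed as category 1 were so in both replicates. Fragments that were listed but not as category 1 are called lower-category here, and may have been category 1 in 1 replicate. The lists used here hold positions and categories without read counts, so the depth behind a listed fragment cannot be given, nor can a spread between replicates. The 305 members were 30.7% of the 993 *Dpn*II fragments of the stretch and covered 133.9 kb, or 29.9% of its 447.3 kb. Of the members, 251 were category 1 for at least 1 bait. They formed 14 blocks of adjoining fragments between 92510139 and 92697178. Within this span of 187.0 kb, 71.6% of the bases were listed. The other 260.1 kb, on the far side, held 545 *Dpn*II fragments and 0 members.

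**Figure D1:**
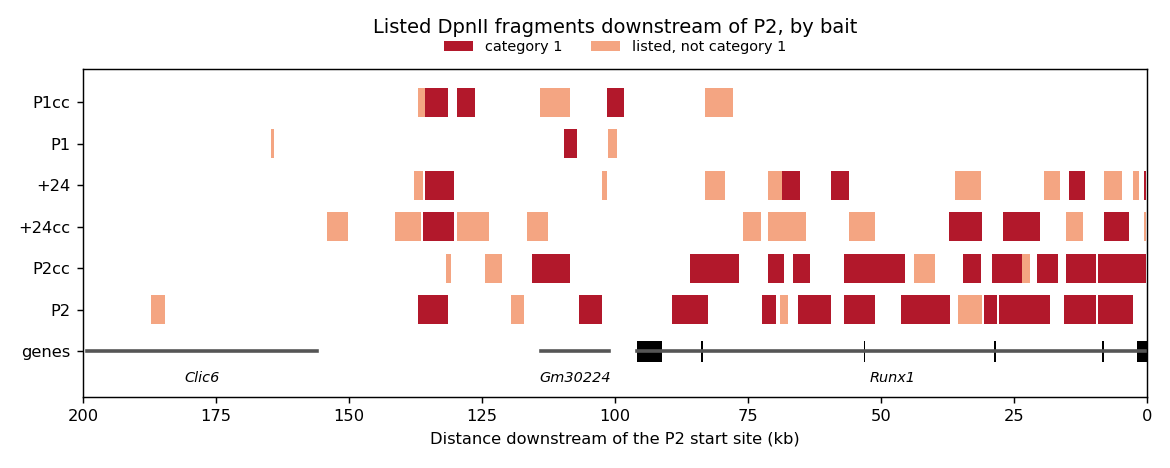
Members by bait against the distance downstream of the P2 start site in kb. Dark boxes are category 1 fragments and light boxes lower-category ones, and the lowest line shows gene bodies with the exons of the P2 transcript as black boxes. P2cc and P2 fill most of the *Runx1* body, P1 has no box there, and P1cc, +24, +24cc and P2 meet at about 131 to 136 kb.

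Membership was rarely shared by many baits. A single bait listed 137 members (44.9%), 2 baits listed 84, 3 listed 50, 4 listed 33 and 5 listed 1. No member was listed by all 6 baits, where P1 listed only 10 of the 993 fragments of the stretch. These counts depend on the length of each list and were not set against the rest of the domain. By pairs of neighbouring baits, 116 members belonged to the P2 pair alone (P2cc or P2), 55 to the +24 pair alone and 14 to the P1 pair alone. The P2 and +24 pairs shared 82 members that the P1 pair did not list. The P1 pair shared 16 members with the P2 pair alone, 6 with the +24 pair alone and 16 with both.

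By zone, 201 members lay in the body of *Runx1* below P2, where they made up 89.7% of the 224 *Dpn*II fragments. A further 7 lay in the 5.32 kb between the end of *Runx1* and *Gm30224*, and 28 lay in *Gm30224*, which has 30 fragments. The 42.2 kb between *Gm30224* and *Clic6* held 65 members of 107 fragments. *Clic6* held 4 of 97, and the 523 fragments beyond *Clic6* held none.

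The baits differed in how much of the stretch they listed. P2cc listed 161 fragments, or 16.2% of the stretch, where it listed 9.69% of the 3221 *Dpn*II fragments of the whole domain. P2 listed 157 (15.8%), against 9.59% over the domain. The +24cc bait listed 136 (13.7%), against 24.9%, and +24 listed 81 (8.16%), against 21.2%. P1cc listed 47 (4.73%), against 16.1%, and P1 listed 10 (1.01%), against 12.1%. Thus the share in the stretch was above that of the whole domain for both P2 baits and below it for the other 4. Members that no other bait listed made up 50 of 157 for P2 (31.8%), 35 of 161 for P2cc (21.7%), 33 of 136 for +24cc (24.3%), 9 of 81 for +24 (11.1%), 5 of 47 for P1cc (10.6%) and 5 of 10 for P1 (50%).

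The category 1 counts separated the baits further. P2 had 139 category 1 members and P2cc 137, which were 88.5% and 85.1% of their members. Category 1 took in 14.0% of all *Dpn*II fragments of the stretch for P2 and 13.8% for P2cc, against 8.01% and 8.26% over the domain. In +24cc 56 of 136 members were category 1, and in +24 35 of 81, which were 5.64% and 3.52% of the fragments of the stretch, against 15.2% and 15.5% over the domain. P1cc had 21 and P1 had 4, or 2.11% and 0.403% of the stretch, where each had 10.4% over the domain. In the rest of the domain the category 1 share of listed fragments was 87.3% for P1, 66.2% for P1cc, 77.0% for +24 and 65.2% for +24cc. In the stretch it was 40.0%, 44.7%, 43.2% and 41.2%, so it was lower there for these 4 baits. For P2cc it was 85.4% in the rest of the domain, close to its share in the stretch, and for P2 it was lower there, at 78.3%. Those shares were not tested, since neighbouring fragments are called in shared windows.

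Inside the body of *Runx1*, P2cc listed 135 fragments (60.3%) and P2 134 (59.8%). P2cc was listed up to 0.15 kb from the P2 start site, and its run nearest to it extended for 9044 bp over 24 fragments, all category 1. The nearest run of P2 ended 2.73 kb from the start site. The authors removed reads on fragments adjacent to a bait. The longest P2cc run covered 11544 bp (92640346 to 92651889) with 24 fragments, and the longest P2 run covered 9677 bp (92669448 to 92679124) with 22, again all category 1. At the limit of the stretch, the last member inside (92696806 to 92697178) was listed by +24, +24cc and P2cc. The next fragment (92697179 to 92697620), which holds the P2 start site and lies outside by its midpoint, was listed by +24 and +24cc. It also holds the P2 bait (92697183 to 92697598), whose self-ligated reads the authors removed, as they did the reads on adjacent fragments. The absence of P2 from these 2 fragments is therefore not informative.

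The listed share fell with distance from P2 for both of its baits. In 25 kb bins, P2cc listed 77.9%, 63.0%, 45.9%, 40.0%, 40.0% and 5.71% of fragments out to 150 kb, and none further. P2 listed 72.1%, 66.7%, 62.3%, 22.0%, 20.0% and 14.3% over the same bins. P2 therefore listed more than P2cc from 25 to 75 kb and from 125 to 150 kb, and less in the other bins. Beyond 150 kb P2 had 2 fragments.

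**Figure D2:**
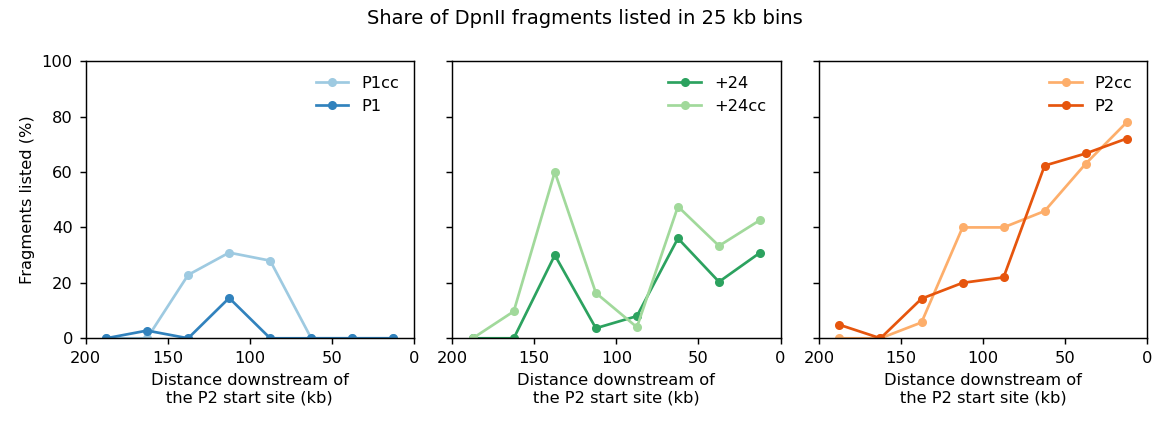
Percentage of *Dpn*II fragments listed (vertical axis) in 25 kb bins downstream of the P2 start site (horizontal axis, kb), 1 line per bait. The P2 lines fall from above 70% to below 15% by 150 kb, the +24 lines have a second rise at 125 to 150 kb (30.0% and 60.0%), and the P1 lines are at 0 in the first 75 kb.

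The longer P2 transcript has 6 exons, of which 5 had listed fragments over their coding part, in a gene body where 89.7% of all fragments were listed by some bait. The coding part of exon 1 (92695484 to 92695753), where the Runt domain begins, lay in 1 fragment that was category 1 for P2cc and lower-category for +24. Exon 2 (92688976 to 92689132) and exon 3 (92668708 to 92668812), which complete the Runt domain, each lay in a fragment that was category 1 for both P2 baits. Exon 4 (92644154 to 92644345) was listed by +24cc, P2cc and P2, and exon 5 (92613599 to 92613760) by P2cc and P2. In both exons the P2 baits reached category 1. Exon 6 (92601466 to 92606124), which encodes the end of the protein with the stop codon, was overlapped by no listed fragment of any bait. The centre of its coding part lay 2.64 kb from the midpoint of the nearest member.

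Exon 6 lay in a gap of 8975 bp between blocks (92599079 to 92608053), which held 19 *Dpn*II fragments. The bases of this gap were 46.7% G or C and 17.9% soft-masked repeats, where the members had 47.6% and 18.4%. The lists do not say whether those fragments lacked reads, or lost them because a control library had reads there, or had reads below the threshold. On both sides of exon 6 fragments were listed. P2 had an 11-fragment category 1 run from 92608054 to 92614851, and P1cc a 9-fragment category 1 run that ended at 92599078.

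The +24 baits, 103.1 and 104.5 kb upstream of P2, were listed in separate runs in the *Runx1* body, up to 83.2 kb from the P2 start site for +24 and 76.0 kb for +24cc, short of its end. +24 listed 58 fragments there and +24cc 78. The category 1 runs of +24cc lay at 3.51 to 8.05 kb, 20.2 to 27.1 kb and 31 to 37.3 kb from the P2 start site. Those of +24 lay at 11.8 to 14.7 kb and 56 to 59.5 kb, and 9 of the 15 fragments of its run from 65.3 to 71.3 kb were category 1, as was the fragment next to the P2 start site. The category 1 fragments of the 2 baits thus did not coincide in the gene body, but part of each set was listed by the other bait as lower-category. The +24cc bait listed such fragments in the +24 runs at 11.8 to 14.7 kb and 65.3 to 71.3 kb. In turn +24 listed them in the +24cc runs at 3.51 to 8.05 kb and 31 to 37.3 kb. The +24cc run at 20.2 to 27.1 kb and the +24 run at 56 to 59.5 kb were not shared. Between 75 and 125 kb both were sparse, with 8.00% and 3.64% of fragments listed by +24 in its 2 bins and 4.00% and 16.4% by +24cc. From 125 to 150 kb they rose to 30.0% and 60.0%.

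The P1 baits listed little in the *Runx1* body. P1 listed 0 of its 224 fragments. P1cc listed 10, in 1 run from 92614136 to 92619480, with 0 in category 1. This run lay just upstream of exon 5, in the intron between exons 4 and 5. In the GENCODE annotation it also lay within the gene *Gm26626* (92612814 to 92620105). Between it and the P2 start site, over 77.8 kb, neither P1 bait was listed. All 3 runs of P1 and the other 4 of P1cc lay beyond the end of *Runx1*. P1 had a run of 4 category 1 fragments in *Gm30224* (92587673 to 92590201), a lower-category run of 4 at its start (92595950 to 92597751) and a lower-category run of 2 in *Clic6*. P1cc had category 1 fragments in 3 of its 5 runs.

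The most shared place in the stretch was intergenic, 20.4 kb from the end of *Clic6* and 17.5 kb from *Gm30224*. There 6 adjoining fragments (92561635 to 92565936, 4302 bp, centred 133.5 kb downstream of the P2 start site) were category 1 for P1cc, +24, +24cc and P2. No other fragment of the stretch was category 1 for 4 baits. The last of the 6, the 428 bp fragment printed above, was also listed by P2cc as lower-category, which made it the only member with 5 baits. P1 did not list it, although its bait lies 2.33 kb from that of P1cc. The site was 264.3 kb from P1cc, 238.0 kb from +24, 236.6 kb from +24cc and 133.6 kb from P2. In no other place was P1cc category 1 together with another bait.

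The runs around this site had different ends for the different baits. P1cc and P2 both ran from 92560327 to 92565936 over the same 10 fragments, of which 6 were category 1 for P1cc and 10 for P2. The +24 bait had a 13-fragment category 1 run from 92561635 to 92567115, and +24cc a 15-fragment one from 92561143 to 92567115. P2cc had 4 lower-category fragments from 92565509 to 92566469. Next to this site and nearer to *Gm30224*, P1cc had a second run of 6 category 1 fragments (92567694 to 92571025), which +24cc listed as lower-category and the other 4 baits did not list.

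**Figure D3:**
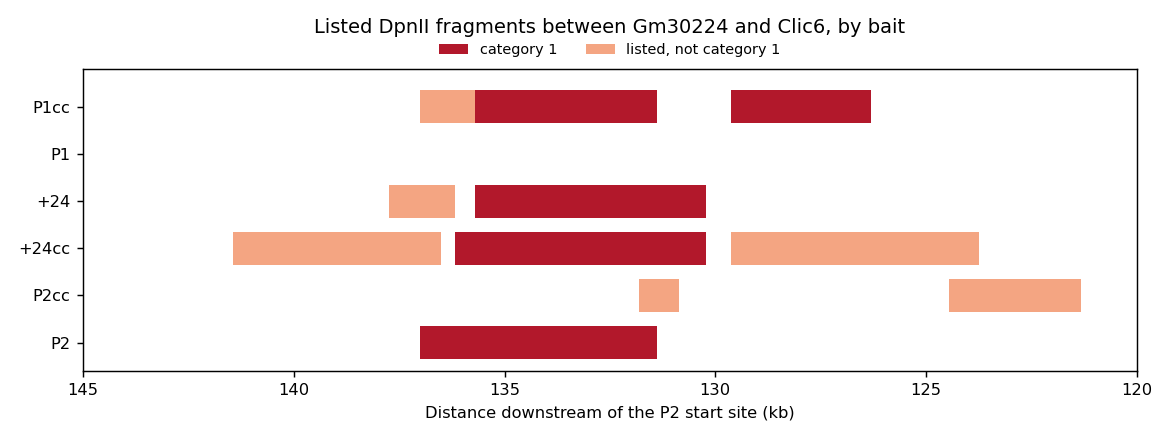
Members by bait around the most shared site, against the distance downstream of the P2 start site in kb. No curated RefSeq gene lies in this part. Dark boxes are category 1 and light boxes lower-category. P1cc, +24, +24cc and P2 have category 1 fragments in common from 131.4 to 135.7 kb, P2cc has a short lower-category run, and P1 has none.

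In *Gm30224* (92583409 to 92596148, minus strand), a long non-coding RNA gene with its start 101.2 kb from P2, the baits took neighbouring pieces. P2cc had a 14-fragment category 1 run from 92581730 to 92588897 over the 3′ end of the gene, of which P1cc listed 12 and +24cc 4, as lower-category fragments. P1 continued with its category 1 run from 92587673 to 92590201, and P2 followed from 92590621 to 92594941 with 9 category 1 fragments. The +24 bait listed 2 lower-category fragments after that, and P1cc 9 category 1 fragments from 92595788 to 92599078 over the start of the gene. P2 and P2cc thus both had category 1 interactions in *Gm30224* but shared no fragment in it. The 4 fragments from 92595950 to 92597751, which hold the promoter printed above, were category 1 for P1cc and lower-category for P1, and no other bait listed them.

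Few interactions reached *Clic6*, a gene of the chloride intracellular channel family that lies from 92498147 to 92541241. P2 listed 2 fragments in it (92510139 to 92512744), which were the farthest members at 187.2 kb from the P2 start site. P1 listed 2 others (92532667 to 92533274). All 4 were lower-category, and neither fragment pair was listed by another bait. The start site of *Clic6*, 199.2 kb from P2, was beyond the last member. The farthest run of +24cc lay just short of *Clic6* (92543155 to 92547122, 7 lower-category fragments), that of P1cc reached 137.0 kb, that of +24 137.8 kb and that of P2cc 131.8 kb.

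Past *Clic6*, where the paper places the downstream domain boundary by visual inspection, 9 curated genes had no listed fragment of any bait. Proceeding from *Clic6*, these are *2410124H12Rik* (47 *Dpn*II fragments), *Rcan1*, which encodes a regulator of calcineurin (139 fragments), *Gm29805* (18), *Kcne1* (26), *Smim34* (32), *Fam243* (6), *1700048M11Rik* (7), *Smim11* (26) and *Kcne2* (13). *Kcne1* and *Kcne2* encode accessory subunits of potassium channels. A fragment that is not listed may have had reads below the threshold.

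The centres of the baits of 1 pair lie 1.10 to 2.33 kb apart, but their lists in this stretch differed. P2cc and P2 shared 88 fragments, which were 54.7% of the P2cc list and 56.1% of the P2 list. In the rest of the domain they shared 52.3% and 52.0%. The +24 and +24cc baits shared 58 fragments, or 71.6% and 42.6% of their lists, against 67.9% and 61.3% in the rest of the domain. In category 1 only, +24cc shared 23.2% of its members with +24. P1cc and P1 shared 5, or 10.6% and 50%, against 48.8% and 60.9% elsewhere, and they shared none in category 1. Across pairs, +24cc shared 69 fragments with P2 and 66 with P2cc, and P1cc shared 23 with P2cc and 11 with P2. P1 shared 1 fragment with P2cc and 0 with +24, +24cc and P2. All baits were amplified from the same ligated chromatin, so the lists are not independent.

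For the share of each pair's interactions that lay in the stretch, fragments that abutted were merged into 1 significant interaction, and those in the stretch were counted against all of the domain. The stretch is cut at the P2 start site, next to the P2 baits and about 130 kb from the P1 baits, so that the identity of a bait and its distance from the stretch cannot be told apart in this comparison. In the P2 pair 28 of 56 interactions (50%, 95% Wilson interval 37.3 to 62.7%) lay in the stretch, with 13 of 26 for P2cc and 15 of 30 for P2. In the +24 pair it was 23 of 111 (20.7%, 14.2 to 29.2%), with 11 of 54 for +24 and 12 of 57 for +24cc. In the P1 pair it was 8 of 80 (10.0%, 5.15 to 18.5%), with 5 of 45 for P1cc and 3 of 35 for P1. By two-sided Fisher's exact tests adjusted over 3 comparisons, the P2 pair had a higher share than the P1 pair (odds ratio 9, 95% interval 3.42 to 25.3, adjusted p = 9.06e-07) and than the +24 pair (3.83, 1.80 to 8.14, adjusted p = 0.00025). By the same exact test, the +24 pair exceeded the P1 pair by an odds ratio of 2.35 (0.94 to 6.43, an interval that includes 1, adjusted p = 0.0498). That last difference passed the threshold narrowly and no longer did so under 5 of 7 alternatives, with adjusted p up to 0.377. With 1 bait per pair, the P2 bait still had a higher share than P1 (adjusted p = 0.000751 by the same exact test) and P2cc than P1cc (0.00154). The tests compare lists and not replicates, and they count neighbouring interactions, and those that both baits of a pair list, as separate, so their p-values are too small. A higher share of the P2 pair can therefore not be read as a trait of its baits apart from their place at the cut.

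**Figure D4:**
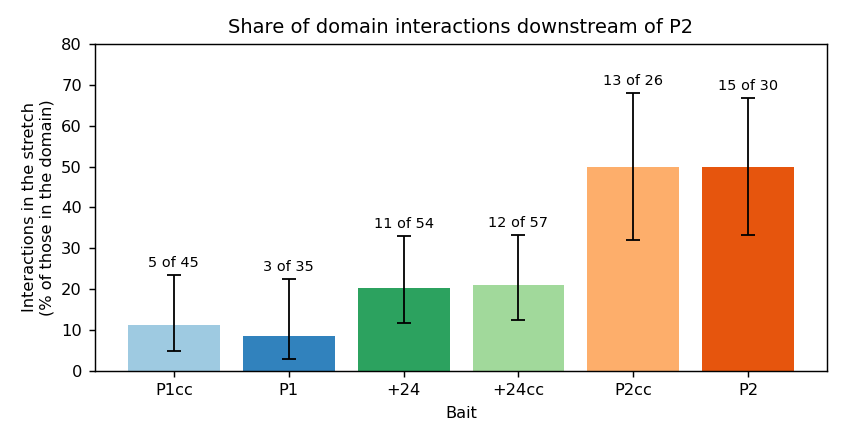
Interactions in the stretch as a percentage of all interactions in the domain, for each bait. Bars are the share, error bars the 95% Wilson interval and the labels the counts. Both P2 baits stand at 50%, the +24 baits at 20.4% and 21.1%, and the P1 baits at 11.1% and 8.57%.

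P1 and +24 are farther from the stretch than P2, so the listed share was also set out by distance from each bait in 50 kb bins. Between 150 and 200 kb downstream of their baits, where the bins of P1, P1cc, +24 and +24cc lie in the stretch, P1 and P1cc listed 0 of 115 and 0 of 113 fragments. At the same distance +24 listed 23.2% and +24cc 27.4%, but in category 1 only 14.3% and 0%. From 200 to 250 kb P1cc listed 27.9%, P1 7.48%, +24 18.3% and +24cc 39.8%. The P1cc list was thus empty at 150 to 200 kb and filled again farther away. P2 and P2cc listed 1.77% and 0% at 150 to 200 kb, which for them is *Clic6* and its surroundings. From 50 to 100 kb, a bin that lies mostly in the *Runx1* body and ends beyond it, they listed 43.8% and 45.5%.

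The same bins on the upstream side showed where the stretch differed from its mirror image. At 50 to 100 kb P2 listed 14.6% of fragments upstream and 43.8% downstream, and P2cc 7.09% upstream and 45.5% downstream. In the first 50 kb the sides were close, at 73.5% upstream and 70.2% downstream for P2 and 66.7% and 68.9% for P2cc. Farther out the order turned for the P2 baits, with 18.2% upstream and 0% downstream at 150 to 200 kb for P2cc, and 5.04% and 1.77% for P2. At the same distance P1cc listed 11.4% upstream and P1 5.67%, with 0% downstream for both. The +24 baits listed 10.4% and 20.1% upstream at that distance, below their values downstream. Those percentages are descriptions without a test.

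**Figure D5:**
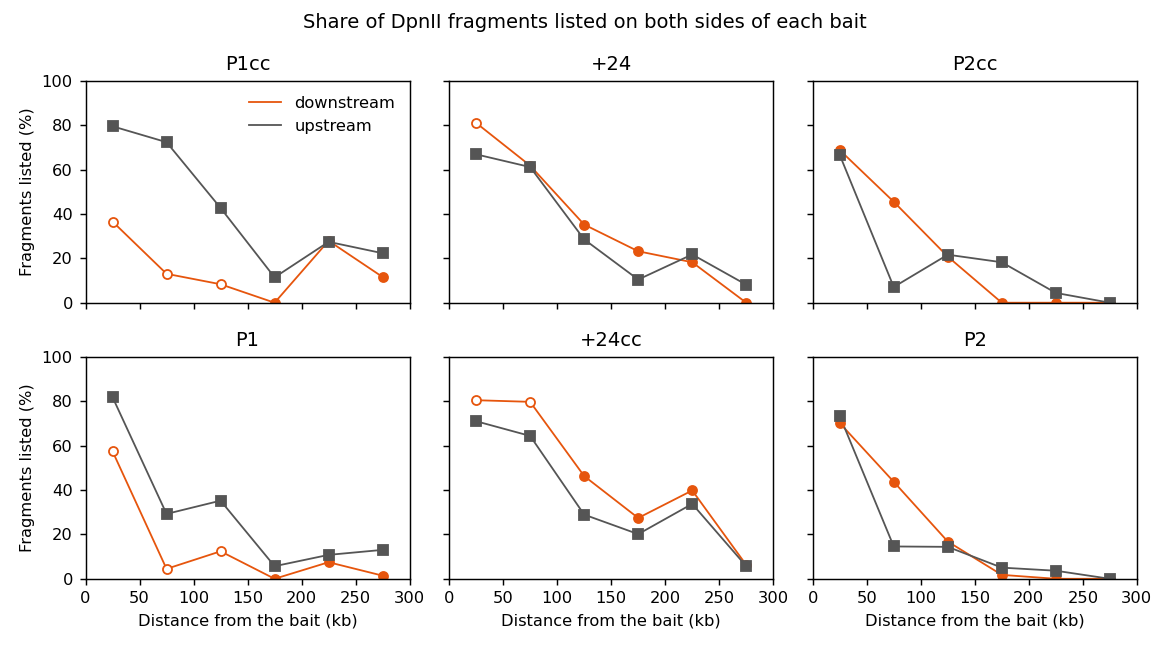
Percentage of *Dpn*II fragments listed in 50 kb bins downstream (orange circles) and upstream (grey squares) of each bait, against the distance from the bait in kb. Filled circles mark downstream bins with over 90% of their fragments in the stretch. For P2cc and P2 the downstream value exceeds the upstream one at 50 to 100 kb, and for P1cc and P1 the downstream value is 0 at 150 to 200 kb.

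Features of the fragments are given without a test. The median length of the members was 306 bp, against 257 bp for the 143 unlisted fragments in the same span. It was 303 bp for the 688 unlisted fragments of the whole stretch and 268 bp for chromosome 16. G and C made up 47.6% of the bases of members and 47.3% of those of unlisted fragments in the span. The unlisted fragments of the whole stretch had 48.2% and chromosome 16 had 40.9%. A *Bfa*I site, the second cutter for the P1 and P2 baits, was present in 56.1% of members and 59.4% of unlisted fragments in the span. An *Mse*I site, the second cutter for the +24 baits, was present in 60.3% and 60.1%. The 34 members with 4 or more baits had a median length of 428 bp, and 76.5% of them held a *Bfa*I site. Exonic bases made up 2.66% of the members in the *Runx1* body, where 7.43% of the body was exonic, and the unlisted exon 6 holds 4659 bp of the 7120 exonic bases.

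Motifs were searched on both strands in the sequence of the stretch. The CTCF core consensus had 9 matches, of which the 3 within the span of the members all lay in listed fragments, which hold 71.6% of the bases of that span. Over the whole stretch 33.3% of the matches were in members, with 29.9% of the bases. Each of these 3 was listed by 1 bait as a lower-category fragment, the *Clic6* match by P2 and the other 2 by +24cc. The 6 other matches lay beyond *Clic6*, where nothing was listed. Windows of 300 bases around the fragment midpoints held the consensus for 2 of the 305 members (0.656%), 3 of the 688 unlisted fragments of the stretch (0.436%) and 0.133% of chromosome 16. The RUNX core TGTGGT had 413 matches in the stretch, 120 of them (29.1%) in members, which hold 29.9% of its bases. It was in 19.3% of member windows, 22.2% of the windows of unlisted fragments of the stretch and 19.7% of all windows on chromosome 16. The shared site between *Clic6* and *Gm30224* had 3 RUNX core matches and 0 of the CTCF core consensus. A match is only a match of letters, and binding was not analysed here.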

How the data were processed

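HPC-7 4C-seq reads of 12 libraries (2 per bait) were mapped by the authors to mm10 with Bowtie1 and assigned to *Dpn*II fragments with fourSig. Reads on fragments next to a bait, and on fragments with reads in 1 of the 6 non-ligated controls, were removed. Interactions were called in each replicate and intersected. In the lists as deposited by the authors, the score column is 1000 throughout, so positions and categories alone were used. The control libraries have no list and were not analysed here.

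All 3673 listed positions coincided with a *Dpn*II fragment of GRCm38.p6. Members were taken by midpoint, and zones from curated RefSeq genes (GENCODE M21 as the alternative). The domain is the region that the authors called separately. It extends past *Clic6*, so the shares over the domain include the 523 fragments there. The primers placed the baits (edlib 1.3.9.post1, up to 1 difference). Abutting fragments were merged and pairs of baits compared by Fisher's exact test in scipy 1.17.1 (Python 3.11.15, numpy 2.4.6, matplotlib 3.10.9), checked on simulated data. The alternatives left fragments unmerged, or merged them over gaps of 1 kb, and used category 1 only, no interactions within 20 kb of the bait, either bait of a pair alone, fragments placed by any base, no fragments under 100 bp, 25 kb bins in place of 50 kb, and GENCODE zones. All curated genes of the stretch were named, and of the fragments those with the most baits, over exons, and the longest and farthest runs. Others were chosen after their values were seen. The members and lists were chosen with earlier results of these data known. Per the methods, the replicates came from cells of different passages.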

Additional observations from a re-analysis of the deposited data

How the results depend on the processing

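The P2 pair kept a higher share of its interactions in the stretch than the P1 pair and the +24 pair under all 7 alternatives, with odds ratios from 7.19 to 13.0 and from 3.19 to 7.05 (15.7 and 6.13 with fragments not merged) and adjusted Fisher's exact p of at most 0.00154 and 0.0159. In all of them the stretch is still cut next to the P2 baits, so they do not separate the bait from its distance. The share of the +24 pair over the P1 pair kept its direction in all 7 but passed the threshold in 2, with fragments not merged (odds ratio 2.56) and with any base counted (2.62). Unmerged fragments are called in shared windows and are not independent, so passing there supports nothing, also for the P2 pair. By the same exact test it did not pass with fragments merged up to 1 kb apart (2.11, adjusted p = 0.136), category 1 only (1.84, 0.377), interactions within 20 kb of the bait left out (2.25, 0.0721), the baits without their cc baits (2.73, 0.232) or the cc baits alone (2.13, 0.284). All 5 hold fewer interactions than the comparison reported, and the cause was not tested further. The number of members was 306 counted from any base, 251 in category 1 only and 237 without fragments under 100 bp. Counts by zone were the same with the GENCODE bounds of *Runx1* and *Clic6*. The bounds of *Gm30224* stayed those of RefSeq, so the count between it and *Clic6* was tested on the *Clic6* side alone. In 25 kb bins the shares of +24 at 150 to 175 and 175 to 200 kb were 35.6% and 9.43%, and those of +24cc 38.1% and 14.0%. In category 1 only, +24 listed 14.3% and +24cc 0% at 150 to 200 kb, +24cc shared 23.2% of its members with +24, and P1 shared 0% with P1cc.

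No paired analysis was possible because each list holds the calls common to both replicates, and neither the replicate numbers nor values without 1 replicate enter a list. Without read counts, an unlisted fragment cannot be told from one without reads.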
